A study of Mus musculus with 14 samples.

Results

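Eya1, Eya2, Eya3, Eya4 and Dach1 are the 5 mouse genes of the Eya and Dach families examined here, and acetylation of histone H3 at lysine 27 (H3K27ac), a mark of active promoters and enhancers, was read at each of them in the embryonic retina. The peaks of each gene were those overlapping its gene model extended by 50 kb on either side, in the mm9 genome with the GENCODE vM1 annotation. All 5 genes were found in the annotation, and their windows held 7 of the 13463 peaks. The windows together span 1.47 Mb, and a peak covered 0.635% of that length.

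The measurement was 1 chromatin immunoprecipitation experiment (ChIP-Seq) on wild-type CD1 retinas at embryonic day 14 (E14), in which the reads of 2 replicate libraries were pooled and compared with 1 isotype control library. The labels name the cells as retinal progenitor cells, and the methods describe whole dissected retinas without sorting, so the pooled signal averages over every cell type in the tissue. The other 13 samples given for the study, which profile open chromatin and RNA at both E14 and postnatal day 2, some after loss of Lhx2, and H3K27ac at the later age, were not analysed here. With the libraries pooled there is no replicate error, and no difference below was tested between samples.

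EYA proteins are transcriptional coactivators that also carry a phosphatase domain, and without a sequence-specific DNA-binding domain of their own they reach their targets through homeodomain proteins of the sine oculis family. DACH proteins are nuclear cofactors, mostly described as corepressors, that belong to the same network. Together with Pax6 and the sine oculis homeobox genes they form the retinal determination network, first worked out in the fly eye (eyeless, sine oculis, eyes absent and dachshund) and reused in the vertebrate eye, ear, kidney and muscle.

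A peak stood within 1000 bp of an annotated transcription start in 3 of the 5 genes, Eya1, Eya3 and Dach1, and in 49.8% of all 22367 protein-coding genes (11147 genes). Eya2 had no start-site peak and 1 peak inside an intron. Dach1 had 2 intronic peaks besides its start-site peak. Eya4 had no peak anywhere in its window. The only peak outside a gene body lay 43.6 kb downstream of Eya3, at the start of another gene, Rpa2.

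The bases upstream of the first coding start are shown for all 5 genes because the starts differ in CpG content and not every CpG-rich start carried a peak. Each is the 300 bases that end at the base before the 5′-most start of a protein-coding transcript, written 5′ to 3′ on the strand of the gene, with CG dinucleotides in capitals. The mm9 positions are chr10:23069702-23070001 on the minus strand for Eya4, chr14:98568763-98569062 on the minus strand for Dach1, chr4:132194602-132194901 on the plus strand for Eya3, chr1:14300282-14300581 on the minus strand for Eya1 and chr2:165480498-165480797 on the plus strand for Eya2.
Eya4 upstream: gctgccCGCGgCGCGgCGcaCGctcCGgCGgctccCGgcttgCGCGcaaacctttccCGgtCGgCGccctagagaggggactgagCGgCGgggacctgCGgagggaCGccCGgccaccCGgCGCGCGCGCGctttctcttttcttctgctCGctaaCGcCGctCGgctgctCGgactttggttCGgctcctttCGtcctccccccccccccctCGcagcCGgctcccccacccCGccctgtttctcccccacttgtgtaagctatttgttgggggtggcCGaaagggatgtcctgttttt
Dach1 upstream: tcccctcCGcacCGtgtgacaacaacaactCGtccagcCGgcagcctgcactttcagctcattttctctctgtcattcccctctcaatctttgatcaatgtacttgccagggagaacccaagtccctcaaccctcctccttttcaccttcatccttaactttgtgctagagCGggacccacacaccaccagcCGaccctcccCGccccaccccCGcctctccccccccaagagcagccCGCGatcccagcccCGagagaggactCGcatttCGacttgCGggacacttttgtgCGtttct
Eya3 upstream: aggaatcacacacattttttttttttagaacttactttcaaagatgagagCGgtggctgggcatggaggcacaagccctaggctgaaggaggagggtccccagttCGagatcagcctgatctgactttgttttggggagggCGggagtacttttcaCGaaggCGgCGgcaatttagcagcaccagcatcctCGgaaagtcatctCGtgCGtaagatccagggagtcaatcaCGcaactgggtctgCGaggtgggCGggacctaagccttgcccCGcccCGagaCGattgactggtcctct
Eya1 upstream: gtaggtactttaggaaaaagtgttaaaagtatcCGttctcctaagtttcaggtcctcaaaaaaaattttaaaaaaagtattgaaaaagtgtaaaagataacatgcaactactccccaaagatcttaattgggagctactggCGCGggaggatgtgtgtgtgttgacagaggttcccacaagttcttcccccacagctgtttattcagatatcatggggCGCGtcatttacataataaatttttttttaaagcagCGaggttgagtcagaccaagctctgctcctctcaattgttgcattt
Eya2 upstream: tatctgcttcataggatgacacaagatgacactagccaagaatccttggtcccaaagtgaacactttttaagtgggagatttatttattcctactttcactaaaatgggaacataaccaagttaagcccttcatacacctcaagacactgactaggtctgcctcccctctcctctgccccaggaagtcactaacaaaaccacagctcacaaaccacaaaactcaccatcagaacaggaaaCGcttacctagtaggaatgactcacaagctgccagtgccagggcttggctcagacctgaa

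Eya4, with no peak, had the densest of these sequences, with 36 CG dinucleotides and a GC content of 69.7%. Dach1 had 15 (GC 58.3%), Eya3 had 15 (54.3%) and Eya1 had 6 (39%). Eya2 had 1 CG dinucleotide and a GC content of 45.3%. The Dach1 sequence also holds the start of a non-coding transcript with a retained intron, at chr14:98568984.

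The middle of the longer of the Dach1 intronic pair is shown because it was the only intronic peak of the windows to meet the stricter limits given below. It is the central 300 bases of the peak on the plus strand of mm9, chr14:98507908-98508207. Capitals mark matches on either strand to TAATTA (homeodomain core), TCAGGTT (MEF3 core, bound by sine oculis homeobox proteins), TGACAG (MEIS core), ACAAAG (SOX core) and CCAAT (NFY core).
Dach1 intronic peak: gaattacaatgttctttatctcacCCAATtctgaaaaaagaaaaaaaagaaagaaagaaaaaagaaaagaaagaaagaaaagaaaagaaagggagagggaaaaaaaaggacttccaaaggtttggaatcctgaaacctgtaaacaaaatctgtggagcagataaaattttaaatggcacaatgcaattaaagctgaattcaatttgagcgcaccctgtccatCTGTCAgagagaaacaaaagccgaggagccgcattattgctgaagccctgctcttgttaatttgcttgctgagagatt

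This sequence held TGACAG and CCAAT once each. TGACAG occurred in the central 300 bases of 21.5% of the 2855 peaks away from every annotated start, and CCAAT in 26.7%. The same pair occurred once each in the central 300 bases of the shorter Dach1 peak. Neither of the Dach1 peak centres held TAATTA (5.46% of peak centres), TCAGGTT (3.57%) or ACAAAG (31.1%). Among the upstream sequences of the 5 genes, TGACAG (17.5% of 22359 such sequences) occurred in those of Dach1 and Eya1, ACAAAG (18.5%) in those of Dach1 and Eya3, and CCAAT (39%) in that of Eya1, while none held TAATTA (5.68%) or TCAGGTT (4.25%). These matches are descriptions of letters in a window.

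Every signal value below comes from the peak list, while gene positions, exons and CpG content come from the annotation and the genome sequence. The pileup is the mean number of ChIP fragments per base of a peak, counted once the larger ChIP library had been brought to the size of the control. It does not grow with length as a total would, but a long region averages over its weaker stretches. The fold enrichment is the ratio of that pileup to the local background of the control with 1 added to each, a form that matched the listed p-values more closely than the plain ratio, and q is the false discovery rate attached by the peak caller. The intervals are exact 95% Poisson intervals on the fragments each pileup implies, and they cover counting error of the ChIP only. After removal of duplicates the list rests on 113543038 ChIP tags and 9210563 control tags, and a stretch of 1 kb holds 3.41 control tags on average, so the local background is the coarser side of each ratio.

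Eya3, a broadly expressed member of its family, had the highest pileup of the 7 peaks. Its start-site peak (chr4:132194559-132195663, 1105 bp) had a pileup of 21.72 (interval 20.4 to 23.1), which ranked 1194 of 13463. The fold enrichment was 4.37 and the -log10 q was 6.79. This peak was high in pileup and ordinary in fold enrichment, where it ranked 7111. The local background implied by these values was 4.2 fragments per base, the highest of the 7, against a median of 2.36 over all peaks. The gene lies at chr4:132194902-132280680 on the plus strand (ENSMUSG00000028886.8). The peak reached 343 bp upstream and 761 bp downstream of the first coding start. It covered the whole of exon 1 (169 bp in the longest form of that exon) and 593 bp of the first intron. Of the 11 annotated start positions of Eya3, 8 lay under this peak, and the 3 farther inside the gene, each of a non-coding transcript, lay 16952 bp or more from any peak.

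Dach1, the mouse homologue of dachshund, had the longest of the 7 peaks. Its start-site peak (chr14:98565992-98569458, 3467 bp) ranked 223 of 13463 by length, within the longest 1.66%. The pileup was 18.56 (17.8 to 19.3), ranking 3304. The fold enrichment of 6.49 (rank 1162) and the -log10 q of 9.58 (rank 1470) were the highest of the 7. The peak was 3.14 times as long as that of Eya3 and 3.8 times as long as that of Eya1. Most of that length lay inside the gene. The peak reached 696 bp upstream and 2770 bp downstream of the first coding start (chr14:98568762, minus strand), and it covered the 1061 bp exon 1 of Dach1-001 and Dach1-002 and 1710 bp of their first intron. Among 6502 peaks that cover the first coding start of exactly 1 gene, 79.9% reached farther downstream than upstream, and 98.6% had a shorter downstream reach than Dach1. The gene lies at chr14:98186066-98568984 (ENSMUSG00000055639.9), and all 3 of its annotated start positions lay under the peak.

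Eya1, which is needed for ear and kidney formation, had a start-site peak near the middle of the list by pileup. That peak (chr1:14299488-14300400, 913 bp) had a pileup of 14.95 (13.7 to 16.3), ranking 6841, and it ranked 7657 by length. The fold enrichment of 5.62 ranked 2649, higher than either, with a local background of 1.84. The -log10 q was 6.79. Like those of Eya3 and Dach1, the peak reached farther into the gene than upstream of it. It reached 119 bp upstream and 793 bp downstream, covering the 555 bp exon 1 and 239 bp of the first intron. Within 500 bp either side of the start the ratio of observed to expected CpG was 0.76. Eya1 (chr1:14159035-14300281, minus strand, ENSMUSG00000025932.7) has another coding start inside the gene at chr1:14274060, and the nearest peak to it was the start-site peak, 25.4 kb away. No other peak lay in the 241 kb window.

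The order of the start-site pileups was Eya3, Dach1, Eya1. The Eya3 pileup was 1.17 times that of Dach1 and 1.45 times that of Eya1, and none of the 3 counting intervals overlapped. By fold enrichment the order was Dach1, Eya1, Eya3, so the first by pileup was the last by ratio. The Rpa2 peak, at 16.61 (15.2 to 18.2), stood between Dach1 and Eya1 and overlapped the interval of each. All 3 start-site peaks met stricter limits (fold enrichment 4 or more, q 0.001 or less), which 37.8% of protein-coding genes met at a start.

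**Figure D1:**
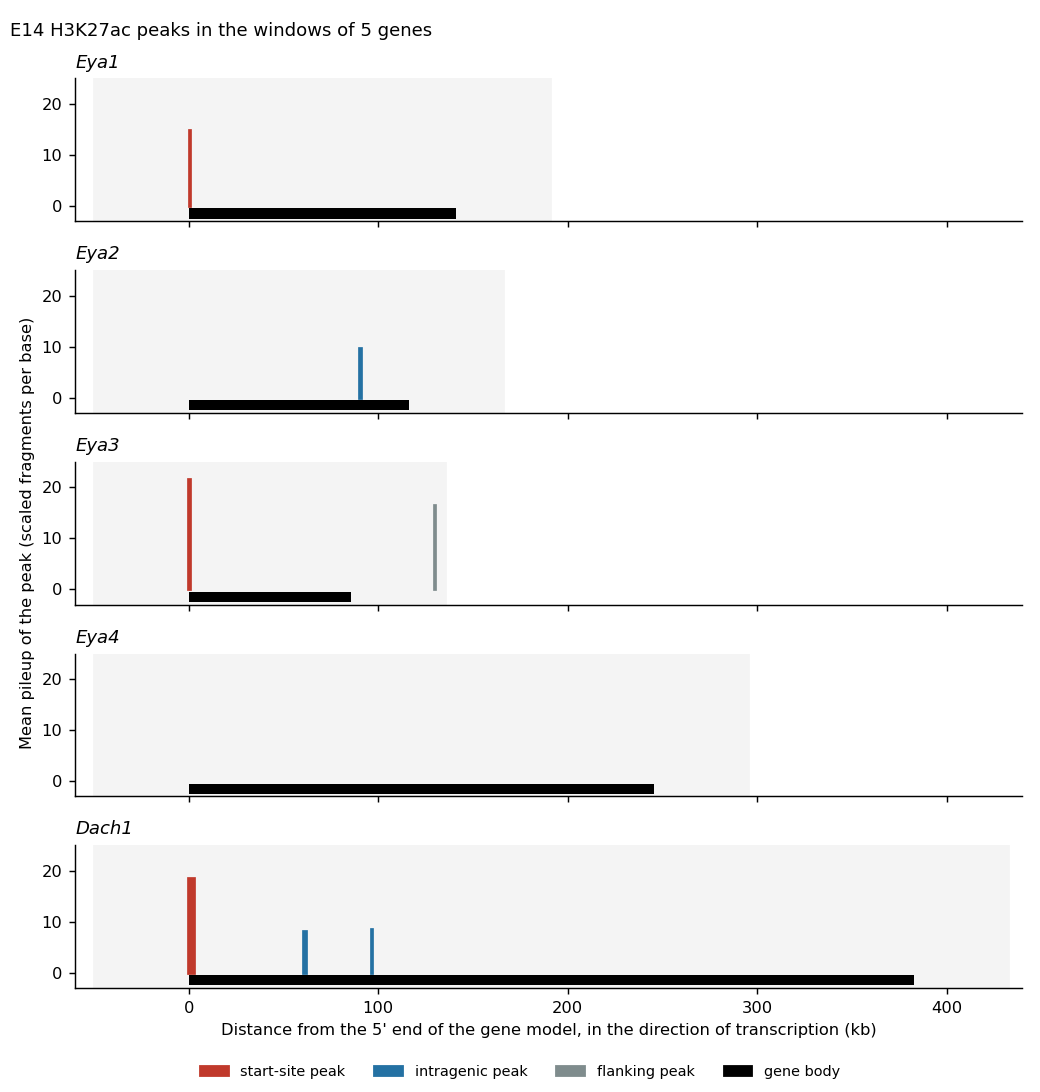
Map of the 5 windows, with distance from the 5′ end of each gene model in kb along the direction of transcription on the x axis and the mean pileup of each peak (scaled fragments per base) on the y axis. Grey shading marks the window of the gene plus 50 kb, the black bar the gene body, and bars of a minimum drawn width the peaks. Start-site peaks stand at the left end of Eya1, Eya3 and Dach1, the intronic peaks of Eya2 and Dach1 are lower, and the Eya4 window is empty.

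The intronic peaks of Eya2 and Dach1 were all lower than the start-site peaks, with pileups of 8.28 to 9.72 against 14.9 to 21.7. Over the whole list the median was 10.1 for the 3161 peaks away from protein-coding starts and 16.3 for the 10302 peaks within 1000 bp of such a start. An intragenic peak away from the gene's own starts was present in 2 of the 5 genes and in 5.41% of all protein-coding genes. Long genes had one more often. Among the 2401 genes with a body of at least 100 kb, 20.1% had such a peak, and 4 of the 5 members (Eya1, Eya2, Eya4 and Dach1) are of that length. All 3 intronic peaks lay away from the start of any annotated gene.

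In Eya2, a member described in cranial placodes and muscle precursors, the intronic peak was the sole peak of the window. The peak, 1150 bp long, had a pileup of 9.72 (8.83 to 10.7), ranking 11428, a fold enrichment of 3.43 and a q of 0.0126. Among the peaks away from protein-coding starts, 45% had a lower pileup and 71.2% were shorter. It overlapped no annotated exon of Eya2 (chr2:165480798-165597227, plus strand, ENSMUSG00000017897.11). None of the 6 annotated start positions of the gene carried a peak.

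In Dach1 the pair of intronic peaks lay in intron 1, which is 149489 bp long in Dach1-001. The one nearer the start (chr14:98507236-98508879, 1644 bp) had its midpoint 60.7 kb downstream of the first coding start. Its pileup was 8.28 (7.59 to 9.01), ranking 12502, while its length ranked 2418. The fold enrichment was 4.49 and the q was 0.000908, so it was the only intronic peak of the 3 to meet the stricter limits. Its GC content was 34.7%, below the median of 53.3% over the peaks away from any start. Its pileup was the lowest of the 3. Its implied local background of 1.07 equalled the mean control depth of the genome, against 2.12 at the Eya2 peak and 2.2 at the other Dach1 peak. The farther one (chr14:98472477-98472796, 320 bp) had its midpoint 96.1 kb downstream of the start. It was among the shortest and weakest of the list, ranking 13360 by length and 13436 by -log10 q. Its pileup was 8.55 (7.01 to 10.3) and its fold enrichment 2.98. Its q of 0.0754 was close to the limit of 0.1 used to call broad regions. The counting intervals of the Dach1 pair overlapped each other, and each overlapped that of the Eya2 peak.

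A flanking peak was present for 1 of the 5 genes, Eya3, and for 57.3% of all protein-coding genes. This peak (chr4:132324262-132325007, 746 bp, pileup 16.61, fold enrichment 5.82) covered the start of Rpa2, which encodes a subunit of the single-stranded DNA-binding complex RPA used in replication. It ranked 5164 by pileup and 9183 by length. Starts of 3 other protein-coding genes lay in the 5 windows, and 1 of them, Rpa2, had a start-site peak. A flanking peak away from protein-coding starts was found for 0 of the 5 genes and for 16.6% of all protein-coding genes.

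**Figure D2:**
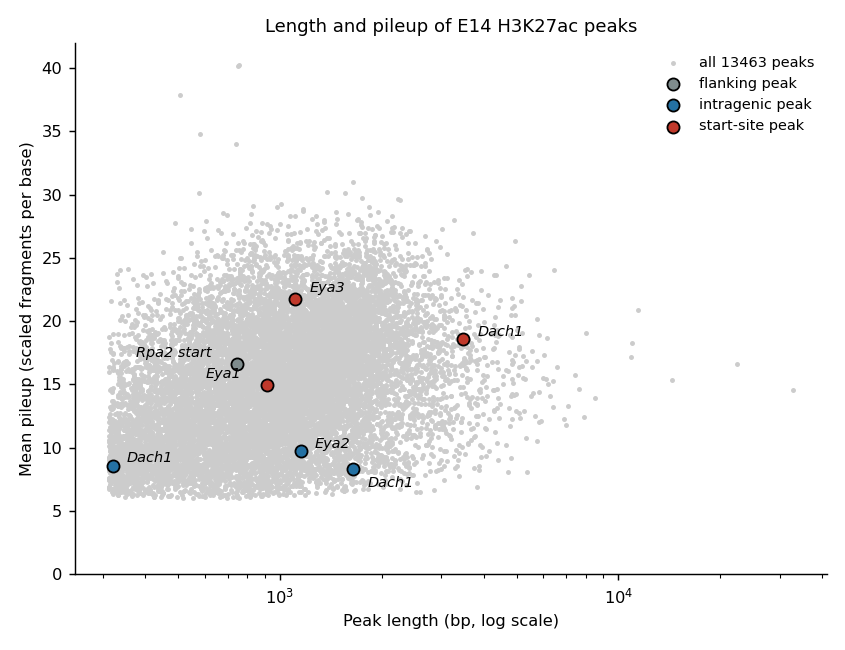
Length in bp (log scale, x axis) against mean pileup (scaled fragments per base, y axis) for all 13463 E14 H3K27ac peaks in grey, with the 7 peaks of the Eya and Dach1 windows in colour. The Dach1 start-site peak lies to the right at 3467 bp, the Eya3 start-site peak is the highest of the 7 at 21.72, and the intronic peaks of Eya2 and Dach1 lie between 8.28 and 9.72.

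Eya4, known for its part in hearing and heart muscle, was without a peak over 346 kb. The gene lies at chr10:22823974-23069701 on the minus strand (ENSMUSG00000010461.7), and both annotated transcripts start at chr10:23069701. The nearest peak upstream of the gene was 437 kb away and the nearest downstream was 372 kb away. An empty window was found for 27.9% of all protein-coding genes and for 18.3% of those with a body of at least 100 kb. The lowest pileup in the whole list was 6, so an H3K27ac level below the limit of detection at Eya4 cannot be told from its absence.

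The Eya4 start was as CpG-rich as those that carried a peak. The ratio of observed to expected CpG within 500 bp of the first coding start was 0.785 in Eya4, 0.782 in Eya3, 0.76 in Eya1 and 0.724 in Dach1, and 0.292 in Eya2. The median over protein-coding genes was 0.553. The share of genes with a start-site peak rose with this ratio, and among the 10283 genes at 0.6 or above it was 86.4%, against 18.7% of those below. Of the 4 members at 0.6 or above, 3 had a start-site peak. In the class of 0.7 to 0.8, which holds Eya1, Eya3, Eya4 and Dach1, 86.1% of 3097 genes had one. Among genes with a body of at least 100 kb the share was 68.6%. Grouping by CpG content was chosen after the data had been seen.

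**Figure D3:**
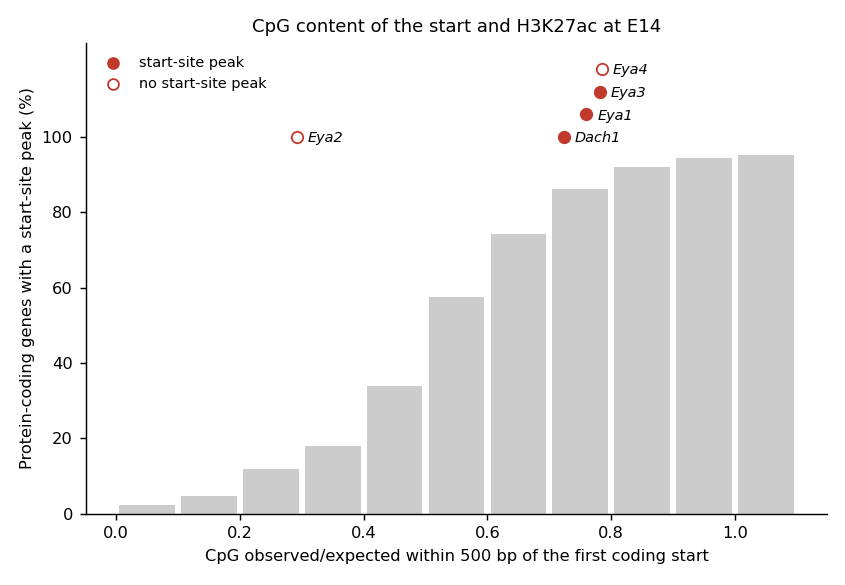
Share of protein-coding genes with a start-site peak (bars, %) by the ratio of observed to expected CpG within 500 bp of the first coding start, in classes of 0.1 (the last holds all genes at 1 or above). Circles above the bars give the ratio of each member, filled with a start-site peak and open without, and their height has no meaning. Eya4 is open at 0.785, beside filled Eya3 at 0.782, and Eya2 is open at 0.292.

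Divided by window length, no member was rich in H3K27ac peaks. By number, the windows held 3 peaks for Dach1, 2 for Eya3, 1 each for Eya1 and Eya2 and 0 for Eya4. Over all protein-coding genes the median was 1 and the upper quartile 3. Windows of matched length were not compared. A peak covered 1.12% of the Dach1 window, 0.996% of the Eya3 window, 0.531% of the Eya2 window, 0.378% of the Eya1 window and 0% of the Eya4 window. The median over all protein-coding genes was 1.08%. Dach1 was above the coverage of 50.9% of genes, Eya3 of 47.9%, Eya2 of 36.6% and Eya1 of 32.7%. Per 100 kb of window there were 1.08 peaks for Eya3, 0.621 for Dach1, 0.462 for Eya2 and 0.415 for Eya1, against a median of 0.967. The windows of Eya1, Eya2, Eya4 and Dach1 are long, with bodies longer than those of at least 91.3% of protein-coding genes.

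The other 19 genes compared from the retinal determination network and its cofactors served as the nearest comparison. A start-site peak was present in 16 of them and absent in 3, which were Pax2, Six2 and Dach2, beside the 49.8% of all protein-coding genes and 86.4% of the CpG-rich ones given above. Their start-site pileups ran from 9.29 to 20.1 with a median of 15.1. The highest were Six6 at 20.1, Skil at 19.9 and Lhx2 at 19.2. Six6 and Lhx2 encode homeodomain factors of the early eye field, and Skil encodes a SKI-family corepressor related to DACH. The Eya3 pileup of 21.72 was above all 16, and its interval (20.4 to 23.1) overlapped those of Six6 (19.3 to 21.1) and Skil (19.1 to 20.7). The Dach1 pileup was exceeded by 3 of them and the Eya1 pileup by 8. By fold enrichment the order differed. Eya3 (4.37) stood below Skil (6.57) and Lhx2 (5.29) and above Six6 (4.22). Dach1 (6.49) and Eya1 (5.62) stood between Skil and Lhx2.

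By length the network looked different. The start-site peak of Pax6, the eyeless homologue, was 32865 bp, the longest of the whole list, with a mean pileup of 14.6 over that length. The median of the longest start-site peak per gene was 3284 bp over the 16 genes. The Dach1 peak of 3467 bp was exceeded by 7 of them, while the peaks of Eya1 (913 bp) and Eya3 (1105 bp) were shorter than the shortest of these, 1484 bp. The same held for coverage. The median coverage over the windows of the 19 genes was 5.6%, above that of each of the 5 members. These percentages were not matched for window length, and the windows of the members ran from 186 kb (Eya3) to 483 kb (Dach1). An intragenic peak was present in 6 of the 19, against 5.41% of all protein-coding genes and 20.1% of the long ones. A flanking peak was present in 11, a share near the 57.3% of all protein-coding genes. The 19 genes were chosen by role with earlier results in view, so these counts are a description.

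**Figure D4:**
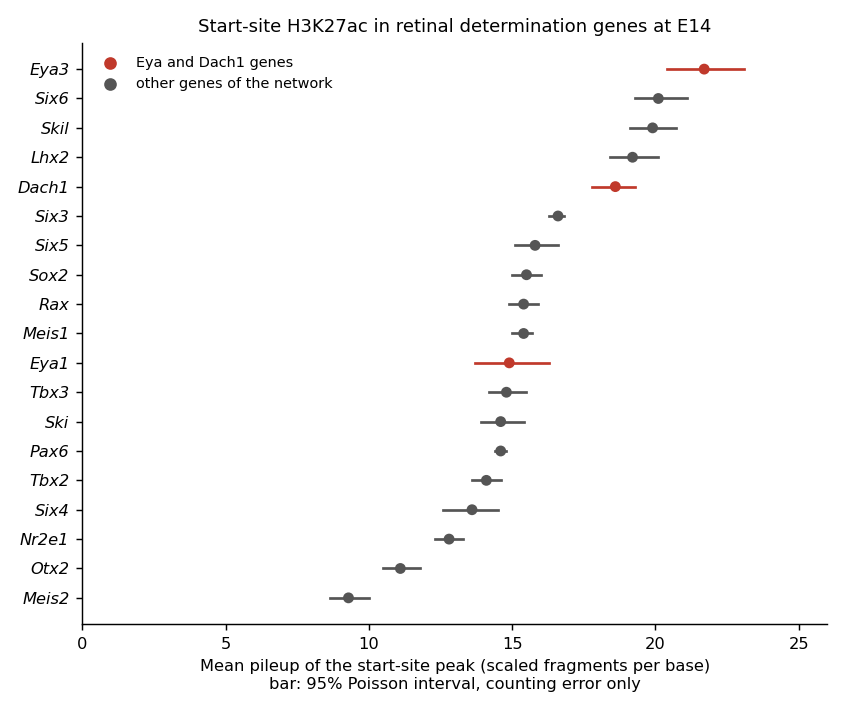
Mean pileup of the start-site peak (scaled fragments per base, x axis) for the 19 retinal determination genes that had one, ordered by level, with Eya3, Dach1 and Eya1 in red and the other 16 in grey. Where a gene has more than 1 start-site peak the higher is shown, and bars are exact 95% Poisson intervals that cover counting error only. Eya3 is the highest at 21.7, Dach1 is the fifth at 18.6 and Eya1 lies in the middle at 14.9.

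The labelled tissue was compared with lists of marker genes, which were chosen with earlier results known. A start-site peak was present at 9 of 9 genes compared for retinal progenitors and at 7 of 7 for postmitotic retinal neurons, against 49.8% of all protein-coding genes and 86.4% of those with a CpG ratio of 0.6 or above. It was present at 1 of 6 pigment epithelium genes (Pmel, named after its value was seen), and at 0 of 4 lens, 0 of 3 skeletal muscle, 0 of 4 blood and vessel and 0 of 2 liver genes. The part of any one of these cell types in the values of the Eya and Dach1 genes was not tested.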

How the data were processed

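Reads from the 2 H3K27ac libraries were aligned by the authors with Bowtie2 to mm9, pooled and compared with the isotype control by MACS 2.1.0.20140616 with a broad cutoff of 0.1 and at most 1 tag per position. The deposited pileup is a signal scaled towards the smaller library and averaged over each region. The deposited fold enrichment is a ratio to the local control background, read here as having 1 added to both sides, and the deposited -log10 p-value and -log10 q-value were likewise averaged. Tags after filtering numbered 113543038 (ChIP) and 9210563 (control). No per-replicate values were analysed here, so no replicate error is given.

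Peaks were intersected with GENCODE vM1 genes in Python 3.11.15 with pandas 2.3.3 and scipy 1.17.1. A start-site peak came within 1000 bp of an annotated start of the gene, an intragenic peak overlapped the body elsewhere, and a flanking peak lay within 50 kb. The overlap script recovered 200 of 200 windows planted in simulated data. The local background was taken as (pileup + 1)/fold enrichment − 1, which gave the listed -log10 p to a median absolute difference of 0.228. Sequences were read from the NCBIM37 genome, on which 0 peaks ran past a chromosome end. Upstream sequences and CpG ratios were read for the 22359 nuclear genes with a coding transcript. Named genes were all members with their peaks, any gene starting at such a peak, and, of the network list, the 3 highest start-site pileups, the longest peak and those without one. Members and lists were chosen with earlier results of these data known. Some genes of these lists and a sequence are not reported here.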

Additional observations from a re-analysis of the deposited data

How the results depend on the processing

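Of 28 alternatives over 8 results, 22 stayed within 1.5 times the value given and 6 did not. The number of genes with a start-site peak was 3 under every alternative run for it (the start base itself, 5000 bp upstream to 1000 bp downstream, only the 5′ end of the gene model, the stricter limits). Under the stricter limits 1 gene in place of 2 had an intragenic peak, since the Eya2 peak was lost, and fewer peaks pass those limits by construction. A flanking peak was found for 0 genes with a 25 kb extension, for 2 with 100 kb, and for 0 when peaks at protein-coding starts were left out, an alternative added after seeing the data. With 100 kb the windows held 11 peaks, the added 4 lying around Eya2. The share of protein-coding genes with a start-site peak was 86.4% at a CpG ratio of 0.6 or above, also added after seeing the data. The median rank of the 7 peaks was above 49.1% of the list by pileup and 55.7% by length. No paired analysis was possible because the replicate libraries were pooled before peaks were called, and for the same reason no replicate could be left out. Depth limits the control more than the ChIP: at a mean control depth of 1.07 the fold enrichments are coarse, and regions with a pileup under 6 are not in the list.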

Other observations

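Beyond the 50 kb windows the surroundings of the genes differed. Within 500 kb of the gene body no further peak was found for Eya1 or Dach1, the next peaks of Eya1 lying 976 kb upstream and 508 kb downstream and those of Dach1 876 kb upstream and 1268 kb downstream. With the peaks of the windows included, the same span held 19 peaks for Eya2 and 26 for Eya3, against 1 for Eya1 and 3 for Dach1. Near Eya2, the peak of 6213 bp at a start of Zmynd8, 111 kb downstream, ranked 20 of 13463 by length, and a peak of 534 bp with a pileup of 12.1 lay 59.8 kb upstream of Eya2 away from any annotated start. Around Eya4 the span held 4 peaks, of which the nearest, 372 kb downstream at the start of Tbpl1, had a pileup of 24.1 and ranked 424. Assignment of any of these peaks to an Eya gene was not tested. These distances were looked up after the windows had been examined, and Zmynd8 and Tbpl1 were named after their values had been seen.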
